A study of Mus musculus with 12 samples.

Results

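The Rab GTPases of vesicle and granule traffic were examined in mouse iNKT1 cells, with and without a conditional deletion of the transcription factor gene Ets1. Members were all rows of the deposited expression table whose mouse gene symbol is Rab followed by a number and at most 1 letter. This gave 43 of 14004 rows. The annotation holds 59 genes named in this way, and the other 16, among them Rab38 and Rab44, have no row and were not analysed here. Cells were sorted as CD1d-tetramer+ YFP+ iNKT1 cells, a T cell subset restricted by CD1d and marked by T-bet, from thymus and from liver. The cKO groups carried Tbx21Cre, the Rosa26-YFP reporter and floxed Ets1 alleles (Ets1F/F), and the control groups carried Tbx21Cre and Rosa26-YFP. Each of the 4 groups (cKO thymus, control thymus, cKO liver and control liver) held 3 libraries. All groups thus share the Cre, which is named for Tbx21, the gene of T-bet. Where the Cre follows the expression of Tbx21, deletion can begin only in cells that have switched on that gene. The design calls the libraries independent replicates, but the labels give no animal, age or sex, so a p-value here reflects variation between libraries that may be technical.

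Rab proteins are small GTPases that switch between a GDP-bound form held in the cytosol and a GTP-bound form on membranes. Each marks a set of compartments, where it recruits motors, tethers and fusion factors, and guanine nucleotide exchange factors (GEFs) and GTPase-activating proteins (GAPs) turn it on and off. In cytotoxic T cells and NK cells, Rab27a docks lytic granules at the immune synapse, Rab7 moves granules and late endosomes along microtubules, and Rab11 carries recycling endosomes. iNKT1 cells hold such granules and secrete cytokines soon after stimulation.

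Values are the authors' library-size-adjusted expression values (units of the deposited table). Reads recovered from them numbered 18.5 to 43.4 M (M, 1e6 reads) in 10 libraries. The shallowest were the second cKO liver library, with 3.21 M and 6.66 units for 1 read, and the third control liver library, with 3.87 M and 6.06 units. Control thymus libraries 1 and 2 stood apart with 3528 and 2824 genes without a read, against 966 to 2223 in the other 10. Ets1, the deleted gene, was lower in cKO cells, by limma estimates of -1.58 ± 0.27 in thymus (log2 fold change ± SE, adjusted p = 0.0095) and -1.97 ± 0.27 in liver (adjusted p = 0.0012). All 9 iNKT and T cell identity genes had rows, with a summed value between 129600 and 176200 in every library. Of the marker lists named for other cells, endothelium (2 of 12 markers with a row) summed to 0.923 to 68.5 in cKO thymus and 72.9 to 301.6 in control thymus. In liver it summed to 1.16 to 88.8 in cKO cells and 460.8 to 946 in control cells. Most of this was Pecam1, at 670.8, 458.3 and 622.7 in control liver. Stab1, the other row, stood at 275.5, 2.54 and 0.779 there and reached at most 24.1 in the other groups. The dendritic cell list (5 of 8) summed to 2277 to 6266 in cKO thymus and 161 to 893 in control thymus, and to 1616 to 2989 in cKO liver and 592 to 1871 in control liver. Itgax made up most of the cKO thymus sum, at 6035, 2189 and 2494, against 0.0213, 5.81 and 444 in control thymus. The listed H2-Aa and H2-Ab1 reached at most 52.4 and 3.09 in cKO thymus. Of the neutrophil list only Mmp9 of 12 had a row, at 0 to 1.16 in cKO liver and 3033 to 3585 in control liver. The B cell list (7 of 8) reached 15030 in the first cKO liver library and 57620 in the first control liver library, mostly Igkc. The double positive thymocyte list (8 of 10) summed to 3156 to 4896 in cKO thymus and 2496 to 8517 in control thymus, and to 5690 to 8693 in cKO liver and 10460 to 14960 in control liver, with no overlap in liver. Its Cd4 stood at 832, 234 and 1657 in cKO liver, against 7921, 6440 and 6957 in control liver. Its Themis did not follow, at 5644, 4997 and 6608 in cKO liver and 5756, 3685 and 4234 in control liver, with overlap. Rag1 reached at most 0.905 and Dntt at most 0.688 in any liver library. The NK cell list (7 of 7) summed to 7525 to 15660 in cKO thymus and 13820 to 24120 in control thymus, and to 5790 to 9121 in cKO liver and 6168 to 10040 in control liver. Klrb1c was its largest part in every library, at 5700 to 14370 in thymus. In thymus Ncr1 reached at most 0.044 and Eomes at most 86.0, and in liver 616 and 395. Fcer1g stood at 263, 532 and 436 in cKO thymus, against 6967, 3191 and 4117 in control thymus. The hepatocyte list (8 of 9) reached at most 465 in cKO thymus and 868 in control thymus, and 1674 in cKO liver and 1755 in control liver. The macrophage list (6 of 11) reached at most 328, 279, 503 and 1189 in the same 4 groups. The libraries are bulk samples, so in these sums transcripts of the sorted cells and of other cells cannot be told apart. The part of other cells in the differences described here was not tested.

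The promoters of 4 members are shown because Ets1 belongs to a family of factors that bind DNA around a GGAA core, and because these members had the lowest thymus p (Rab8a), the lowest liver and thymus estimates (Rab6b and Rab3d) or the main granule role (Rab27a). The sequences are RefSeq windows on GRCm38.p6, 250 bases before to 50 after the RefSeq gene start, written 5′ to 3′ on the gene's strand. Capitals mark GGAA on either strand (GGAA or TTCC). Rab8a lies at chr8:72160950-72161249 (plus strand), Rab27a at chr9:73044560-73044859 (plus strand, 1 of 2 windows listed), Rab3d at chr9:21918134-21918433 (minus strand) and Rab6b at chr9:103111824-103112123 (plus strand). In the GENCODE annotation used for exon lengths Rab6b starts at 103111787, so its whole window lies after that start.
Rab8a: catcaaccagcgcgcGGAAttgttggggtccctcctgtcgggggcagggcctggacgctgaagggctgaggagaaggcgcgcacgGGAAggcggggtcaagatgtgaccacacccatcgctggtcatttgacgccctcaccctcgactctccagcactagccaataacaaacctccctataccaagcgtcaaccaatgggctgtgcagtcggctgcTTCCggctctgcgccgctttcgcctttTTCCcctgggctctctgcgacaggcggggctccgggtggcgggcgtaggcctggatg
Rab27a: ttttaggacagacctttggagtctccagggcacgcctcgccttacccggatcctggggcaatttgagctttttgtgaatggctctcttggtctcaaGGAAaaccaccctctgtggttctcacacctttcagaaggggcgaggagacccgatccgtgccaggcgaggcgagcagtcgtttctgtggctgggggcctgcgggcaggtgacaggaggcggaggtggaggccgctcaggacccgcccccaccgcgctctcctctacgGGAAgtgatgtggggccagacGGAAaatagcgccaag
Rab3d: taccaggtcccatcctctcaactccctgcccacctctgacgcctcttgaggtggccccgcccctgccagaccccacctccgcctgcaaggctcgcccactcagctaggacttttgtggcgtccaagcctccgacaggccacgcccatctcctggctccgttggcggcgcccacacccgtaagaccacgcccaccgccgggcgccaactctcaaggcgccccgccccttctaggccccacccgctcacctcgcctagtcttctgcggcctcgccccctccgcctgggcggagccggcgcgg
Rab6b: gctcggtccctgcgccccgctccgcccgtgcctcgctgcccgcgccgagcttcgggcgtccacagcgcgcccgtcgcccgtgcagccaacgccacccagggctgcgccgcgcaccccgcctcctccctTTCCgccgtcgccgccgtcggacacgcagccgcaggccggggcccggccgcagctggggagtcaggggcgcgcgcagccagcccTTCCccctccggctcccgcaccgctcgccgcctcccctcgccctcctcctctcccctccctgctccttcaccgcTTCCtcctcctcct
The window of Rab8a held 4 such cores, that of Rab27a 3, that of Rab6b 3 and that of Rab3d 0. The longer ETS-type sequence CCGGAAG, searched on both strands and containing the core, was found in the windows of 4 of 37 members with an entry (10.8%: Rab8a, Rab11a, Rab14 and Rab24), against 9.93% of 27025 genes. The core itself was present for 35 of 37 members (94.6%), against 96.5% of genes, so neither count set the members apart. These matches are letters in a window and say nothing of binding.

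Per kilobase of exon, Rab7 had the highest mean over all libraries, with 1930.3 ± 237.1 in cKO thymus, 1657 ± 580.4 in control thymus, 2418 ± 363 in cKO liver and 2082 ± 429 in control liver (mean ± SD, n = 3 libraries). In control thymus Rab8b and Rab1a stood above it. Averaged over all 12 libraries it stood at 2022 per kb, followed by Rab8b (1529), Rab1a (1491), Rab10 (1332), Rab5c (1070.0) and Rab2a (885). The neighbours Rab8b, Rab1a and Rab10 differed by less than the SD within their groups. Rab37 (608) and Rab27a (524) stood below these, while Rab3d (48.2) and Rab27b (26.7) lay among the lowest tested members. The most abundant members thus covered late endosomes (Rab7), early endosomes (Rab5c) and delivery to the cell surface (Rab8b and Rab10). They also covered endoplasmic reticulum and Golgi traffic (Rab1a and Rab2a). Rab genes as a whole took 0.218 to 0.27% of the values of each library.

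**Figure D1:**
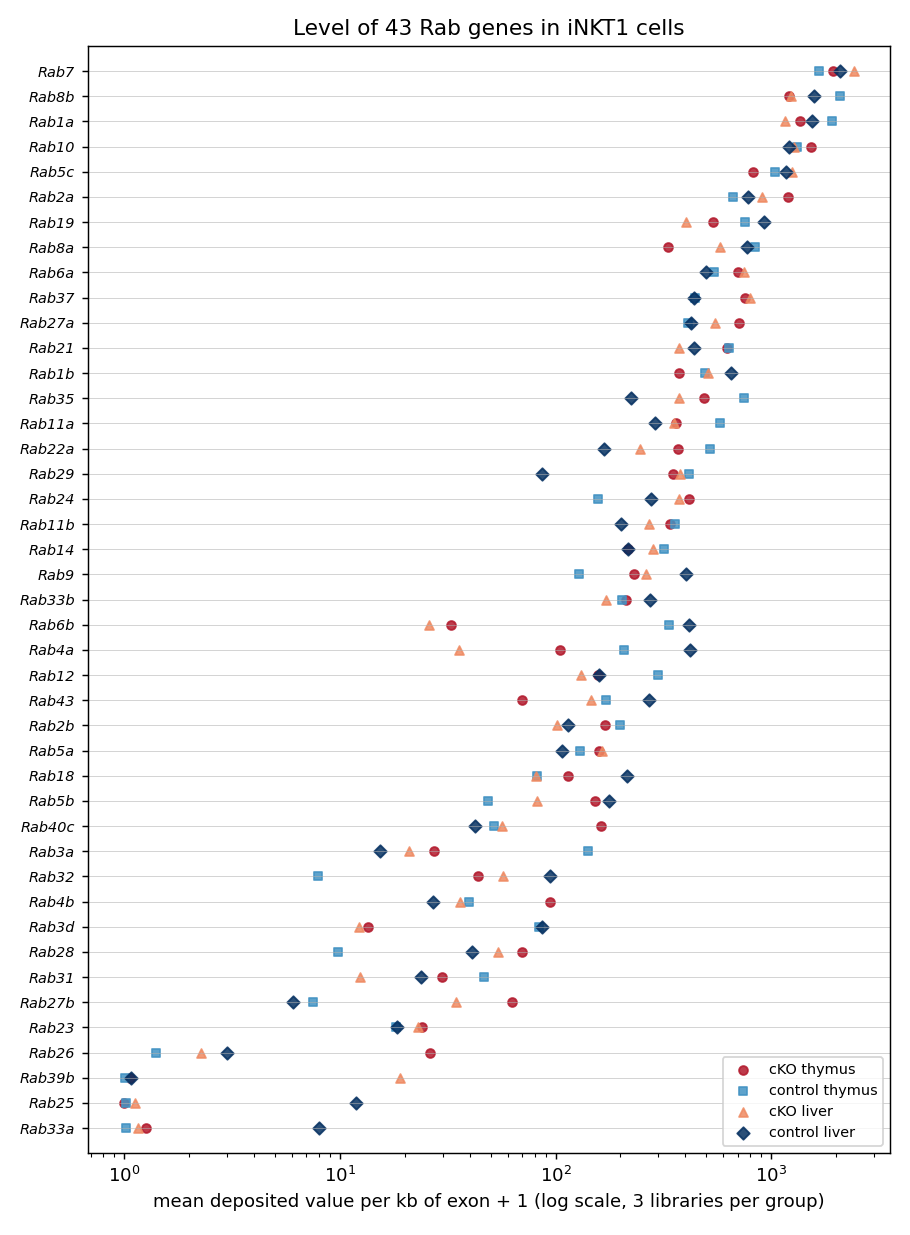
Level of the 43 Rab genes, ordered by their mean. The horizontal axis is the mean deposited value per kilobase of exon plus 1 on a log scale (3 libraries per group), and each symbol is a group. Rab7 leads at 2022 per kb over all libraries, and the 4 groups lie widest apart for genes of low level such as Rab27b and for Rab6b.

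A set of 4 members was too low for a test, which asked for a value of 10 or higher in 3 or more libraries, and 39 passed. Rab25, of epithelial recycling endosomes, had 62 reads in control liver library 1 and none elsewhere. Rab26, of secretory vesicles, had 291 reads in cKO thymus library 3 and at most 19 in any other. Rab33a had 7 reads in control liver library 3 and 1 in cKO thymus library 2. Rab39b had 34 and 28 reads in cKO liver libraries 1 and 2, 1 read in cKO thymus library 3, and none in control cells. Each of these rested mainly on 1 or 2 libraries.

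The first comparison set cKO against control iNKT1 cells within each tissue. No Rab gene passed limma's test at an adjusted p of 0.05 in thymus or in liver (0 of 39 each), against 0.636% of all 13058 genes in thymus and 0.505% in liver. At an unadjusted p under 0.05 there were 6 members in thymus (13.2% of all genes) and 4 in liver (6.92%). edgeR's quasi-likelihood test on recovered reads also called 0 in each tissue. DESeq2 on the same reads called 1 in thymus, Rab8a (log2 fold change -1.38, adjusted p = 0.037), and 1 in liver, Rab4a (-3.53, 0.019). It gave no p-value for Rab3a in any comparison. DESeq2 called more genes than limma, with 613 of all genes in thymus against 83. In liver no setting called more than 620 genes. The groups of libraries did not overlap for 7 members in thymus, 4 higher and 3 lower in cKO cells (14.5% of all genes, 7.6% higher and 6.89% lower). In liver this held for 9 members, 1 higher and 8 lower (18.6% of all genes, 9.99% higher and 8.66% lower). Fold changes are limma estimates with their SE, and adjusted p-values are from limma unless another tool is named. The median log2 fold change of the 39 members was 0.24 in thymus and 0.10 in liver, against 0.24 and 0.02 for all genes. After TMM rescaling, which moved the thymus median of all genes to 0.00, the members' median was -0.02 there. A log2 fold change beyond 1 in either direction was seen for 30.8% of members in thymus and 28.2% in liver, against 45.7% and 34.8% of all genes. In bulk samples, fewer cells of a type and less RNA per cell cannot be told apart.

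Over both tissues, 0 of 39 members were called by limma, against 2.27% of all genes, with 9 at an unadjusted p under 0.05 (13.7% of all genes). edgeR called 0 and DESeq2 called 4, Rab27b (log2 fold change 2.98, adjusted p = 0.017), Rab3d (-2.85, 0.027), Rab4a (-2.28, 0.020) and Rab6b (-3.77, 0.0099). Of all genes DESeq2 called 753 here, against 297 by limma. Rab27b, higher in cKO cells, and Rab3d and Rab4a, lower, were the members without overlap in both tissues. They made up 7.69% of the tested members, and 3.52% of all genes had such a pattern. For 25 of 39 members (64.1%) the estimates had the same sign in thymus and liver, against 58.2% of all genes.

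**Figure D2:**
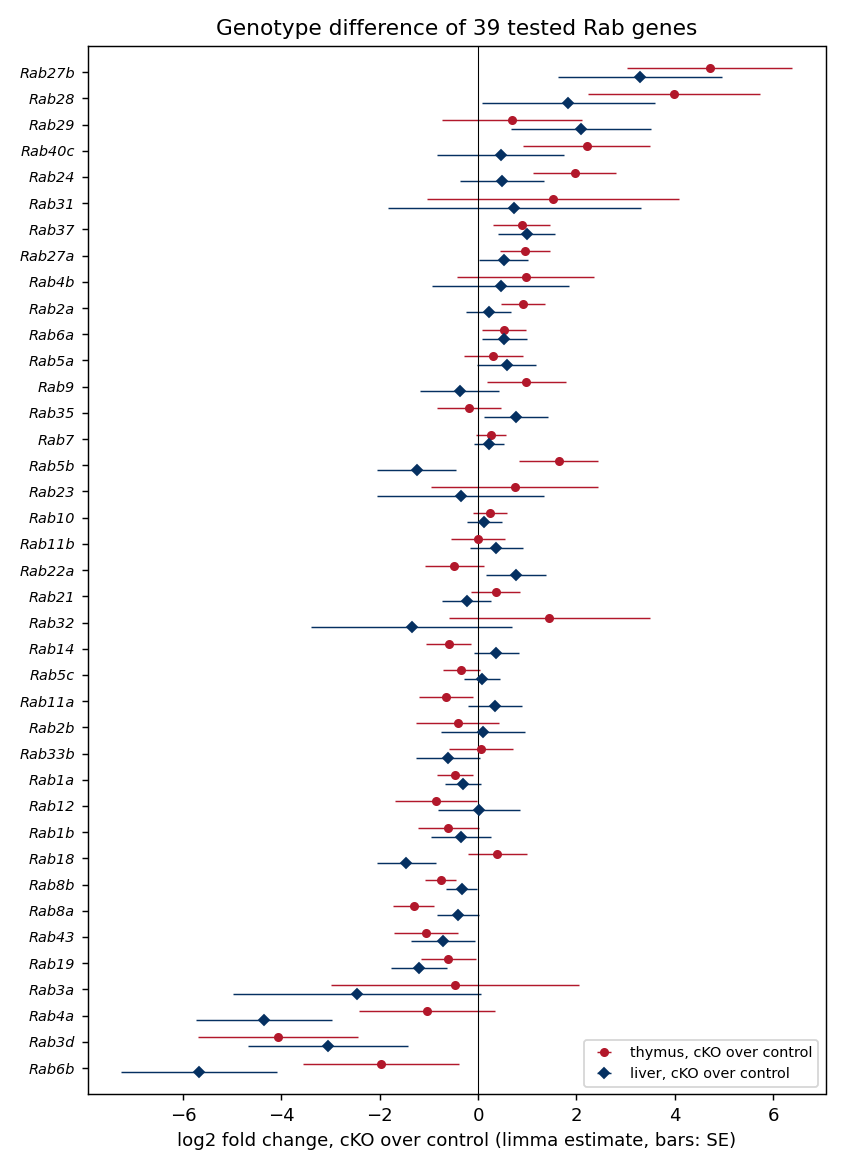
Genotype difference of the 39 tested Rab genes. Points are limma log2 fold changes of cKO over control on log2(value + 1), with circles for thymus, diamonds for liver and bars for the SE, ordered by the estimate over both tissues. Rab27b lies farthest right in both tissues and Rab6b farthest left in liver, and most other members lie within 1 of zero.

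Among members of secretory vesicles and granules, 5 of 6 were tested. Rab27a, which docks lytic granules at the plasma membrane, stood at 2931, 2025 and 3320 in cKO thymus, against 2311, 1792 and 653 in control thymus. Liver cells had 2252, 2119 and 2030.3 in the cKO group, against 928, 2722 and 1303 in control cells. The cKO libraries were tightly grouped in liver and lay inside the control range, and 1 cKO library lay within the control range in thymus. Its difference on the log2 scale was 0.95 ± 0.51 in thymus (95% interval -0.10 to 2.01; adjusted p = 0.43) and 0.52 ± 0.51 in liver (-0.54 to 1.58; 1). Neither difference passed the test.

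Rab27b, the second Rab27 paralogue, which acts in secretion by platelets and mast cells, was low in all groups. It had 247, 842 and 882 units in cKO thymus, against 0.0212 (no read), 71.7 and 138 in control thymus. It had 300.0, 511 and 265 in cKO liver, against 70.4, 5.98 and 86.0 in control liver. All 6 cKO libraries lay above all 6 control libraries, with 2338 and 873 reads in the cKO groups and 172 and 102 in the control groups of thymus and liver. On the log2 scale it differed by 4.71 ± 1.67 in thymus (adjusted p = 0.23), 3.30 ± 1.67 in liver (0.78) and, with both tissues combined, 4.0 ± 1.18 (0.090). Without control thymus libraries 1 and 2, the first of which had no Rab27b read, the thymus estimate was 2.04 (0.78, within 0.061 to 0.80 over its alternatives). The platelet list (4 of 8 markers with a row) summed to 0 to 684.5 in cKO thymus, 0.0771 to 30.2 in control thymus, 19.6 to 64.9 in cKO liver and 31.6 to 70.1 in control liver. Of the mast cell list only Cpa3 of 7 had a row, at 0 to 54.6 in cKO thymus, at most 0.0436 in control thymus, 47.4 to 90.8 in cKO liver and 12.2 to 27.4 in control liver. Their part in the Rab27b values was not tested.

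Rab37, which is known in mast cell and cytokine secretion, stood at 5813, 1659 and 4609 in cKO thymus and 2539, 3787 and 735 in control thymus. In liver it stood at 5028, 3425 and 4268 in cKO cells and 1119, 2407 and 3501 in control cells. The groups overlapped in both tissues, and the residual spread of Rab37 lay at percentile 95.4 among genes of like mean. Its log2 fold change over both tissues was 0.94 ± 0.41 (adjusted p = 0.30). Without control thymus libraries 1 and 2 it was 1.63 and passed the test (0.049, within 0.049 to 0.57 over its alternatives).

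Rab3d, a Rab3 family GTPase of regulated secretion, stood at 0.00465 (no read), 102 and 55.9 in cKO thymus, against 387, 526 and 134 in control thymus. Liver libraries held 19.6, 34.7 and 87.8 in cKO cells, against 492, 401 and 188 in control cells. Every cKO library lay below every control library in both tissues. The log2 fold change (cKO over control) came to -4.07 ± 1.63 in thymus (adjusted p = 0.29), -3.06 ± 1.63 in liver (0.81) and, with both tissues combined, -3.56 ± 1.15 (0.13), and without control thymus libraries 1 and 2 the thymus value was -2.90 (0.79, within 0.16 to 0.80). Rab3a, its relative of synaptic vesicles, ranged from no read in 4 libraries to 918 in control thymus library 1, at percentile 98.2 of spread. Its log2 fold change over both tissues was -1.47 ± 1.78.

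**Figure D3:**
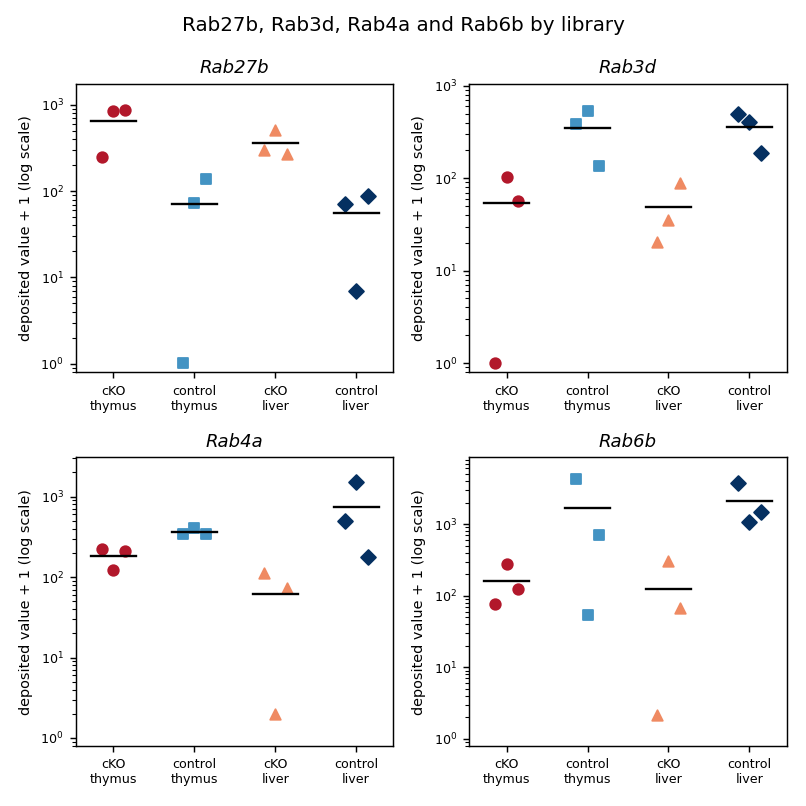
Deposited values of Rab27b, Rab3d, Rab4a and Rab6b in each library plus 1, on log axes, by group. Points are libraries and bars group means (n = 3). The 6 cKO libraries lie above the controls for Rab27b and below those of their own tissue for Rab3d and Rab4a, while for Rab6b control thymus library 2, at 53.2, lies among the cKO values.

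Among late endosome and lysosome members, all 6 were tested and 0 were called. Rab7, which drives late endosome transport and fusion with lysosomes, stood at 5350.2, 5439 and 4325 in cKO thymus and 3081, 6012 and 3883 in control thymus. The liver values were 7159, 6483 and 5290.3 in cKO cells and 4827, 6728 and 4749 in control cells. The groups overlapped, with log2 fold changes of 0.27 (95% interval -0.37 to 0.91) in thymus and 0.22 (-0.42 to 0.86) in liver.

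Rab29, which acts at the Golgi and lysosomes with the kinase Lrrk2, stood at 726, 705 and 109.7 in cKO thymus and 15.7, 812 and 990.1 in control thymus. Liver cells had 1204, 201.0 and 251 in the cKO group and 29.5, 104 and 243 in control cells. The groups overlapped and the log2 fold change over both tissues was 1.40 ± 1.0. Rab32, of lysosome-related organelles, stood at 0.00463 (no read), 44.8 and 256 in cKO thymus, 15.7, 0.0273 (no read) and 32.6 in control thymus, 14.7, 159.7 and 219.6 in cKO liver, and 258, 264 and 133 in control liver. Its cKO and control libraries overlapped in both tissues. Rab24, linked to autophagy, had a thymus log2 fold change of 1.96 ± 0.85 (adjusted p = 0.32), and 62.4% of its exon bases overlap Prelid1 on the opposite strand. The use of strand in counting is unknown, so reads of that pair cannot be told apart. Rab9, of endosome-to-Golgi return, averaged 404 ± 64.8 in cKO thymus and 223 ± 108 in control thymus, without overlap, and 457 ± 132 and 699 ± 558 in cKO and control liver, with overlap. Rab12, linked to receptor degradation in lysosomes, averaged between 393 and 905 in the 4 groups.

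Of the early and recycling endosome members, 12 of 13 were tested and 0 were called. Rab4a, which returns receptors quickly from early endosomes to the surface, stood at 222, 119.6 and 207 in cKO thymus, against 339, 404 and 346 in control thymus. In liver it stood at 110.0, 0.984 (no read) and 72.3 in cKO cells, against 498, 1533 and 177 in control cells. The cKO libraries lay below the control libraries in each tissue, and the library with no read was the shallowest of the series. Its difference on the log2 scale was -4.35 ± 1.38 in liver (adjusted p = 0.25) and -1.03 ± 1.38 in thymus (0.79). Without the libraries under 5 M reads the liver value was -3.28 (0.75, within 0.0055 to 0.83 over its alternatives).

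Rab4b, its paralogue, stood at 366, 132 and 51.5 in cKO thymus, 35.9, 81.0 and 113 in control thymus, 70.6, 47.9 and 88.7 in cKO liver, and 28.7, 70.4 and 55.5 in control liver. Its groups overlapped in both tissues, and 65.0% of its exon bases are shared with the same-strand gene Gm21983, so its values are uncertain. Rab11a, of recycling endosomes, stood at 1311, 719 and 1192 in cKO thymus and 1898, 2298 and 985 in control thymus. Liver libraries held 1315, 714 and 1155 in cKO cells and 460.2, 1047 and 1091 in control cells. Its groups overlapped in both tissues, with log2 fold changes of -0.65 (95% interval -1.79 to 0.50) in thymus and 0.35 (-0.80 to 1.49) in liver. Rab11b stood at 1394, 3299 and 1502 in cKO thymus and 3723, 996 and 1859 in control thymus, and at 2541, 1333 and 1068 in cKO liver and 876, 1674 and 1146 in control liver. It too overlapped in both tissues.

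Rab5a, which controls fusion of early endosomes, stood at 725, 1084 and 694 in cKO thymus, 488, 635 and 918 in control thymus, 1285, 594 and 700.0 in cKO liver, and 469.8, 771 and 437 in control liver. Rab5c, the most abundant Rab5 per kb, stood at 1413, 2128 and 1866 in cKO thymus, 2853, 1760.0 and 2264 in control thymus, 2822, 3178 and 2185 in cKO liver, and 2947, 2328 and 2429 in control liver. Both were among the steadiest members, with residual spreads at percentiles 3.59 and 3.79 among genes of like mean. Rab5b, the third paralogue, stood at 396, 866 and 639 in cKO thymus, against 132, 224 and 243 in control thymus. The liver values were 131, 553 and 342 in cKO cells, against 1049, 419 and 757 in control cells. It was higher in all cKO thymus libraries without overlap, while the liver groups overlapped. On the log2 scale it differed by 1.64 ± 0.80 in thymus (adjusted p = 0.38) and -1.25 ± 0.80 in liver (0.91).

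Rab35, of fast endocytic recycling, stood at 1861, 1380.2 and 863 in cKO thymus, 1243, 4483 and 583 in control thymus, 911, 1433 and 819 in cKO liver, and 461, 917 and 509.9 in control liver. Its groups overlapped in both tissues. The other tested members here were Rab14, Rab21, Rab22a and Rab31, with log2 fold changes over both tissues of -0.11 ± 0.33, 0.06 ± 0.35, 0.14 ± 0.43 and 1.13 ± 1.81. For Rab21 and Rab31 the sign was the opposite on recovered reads, at -0.14 and -0.83 by edgeR and -0.15 and -0.82 by DESeq2. Rab31 had 0 to 415 reads per library and a spread at percentile 98.4.

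All 3 members of delivery to the cell surface were abundant. Rab8a, of post-Golgi exocytosis, stood at 1093, 2413 and 1132 in cKO thymus, against 3262, 6240 and 2236 in control thymus. Liver cells had 3002, 2240 and 2897 in the cKO group, against 3482, 4100 and 3210.2 in control cells. A single cKO thymus library exceeded the lowest control thymus library, and the liver groups did not overlap. The log2 fold change (cKO over control) came to -1.31 ± 0.42 in thymus (adjusted p = 0.17) and -0.41 ± 0.42 in liver (1). Without control thymus library 3 the thymus value was -1.65 and passed limma's test (0.043, within 0.037 to 0.80 over its alternatives), and without control thymus libraries 1 and 2 it was -0.63 (0.79).

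Rab8b, its paralogue, stood at 6298, 4228 and 6645 in cKO thymus and 6365, 12868 and 10430 in control thymus. In liver it stood at 7037, 5464 and 5058 in cKO cells and 5268, 8365 and 8824 in control cells. The groups overlapped in both tissues, and the log2 fold change was -0.76 ± 0.31 in thymus (adjusted p = 0.30). Rab10, of transport to the plasma membrane, stood at 5467, 4279 and 6338 in cKO thymus, 6170.2, 3763 and 3875 in control thymus, 5614, 3692 and 4159 in cKO liver, and 2612, 4197 and 5984 in control liver. Its groups overlapped, with log2 fold changes of 0.24 and 0.13 in thymus and liver.

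**Figure D4:**
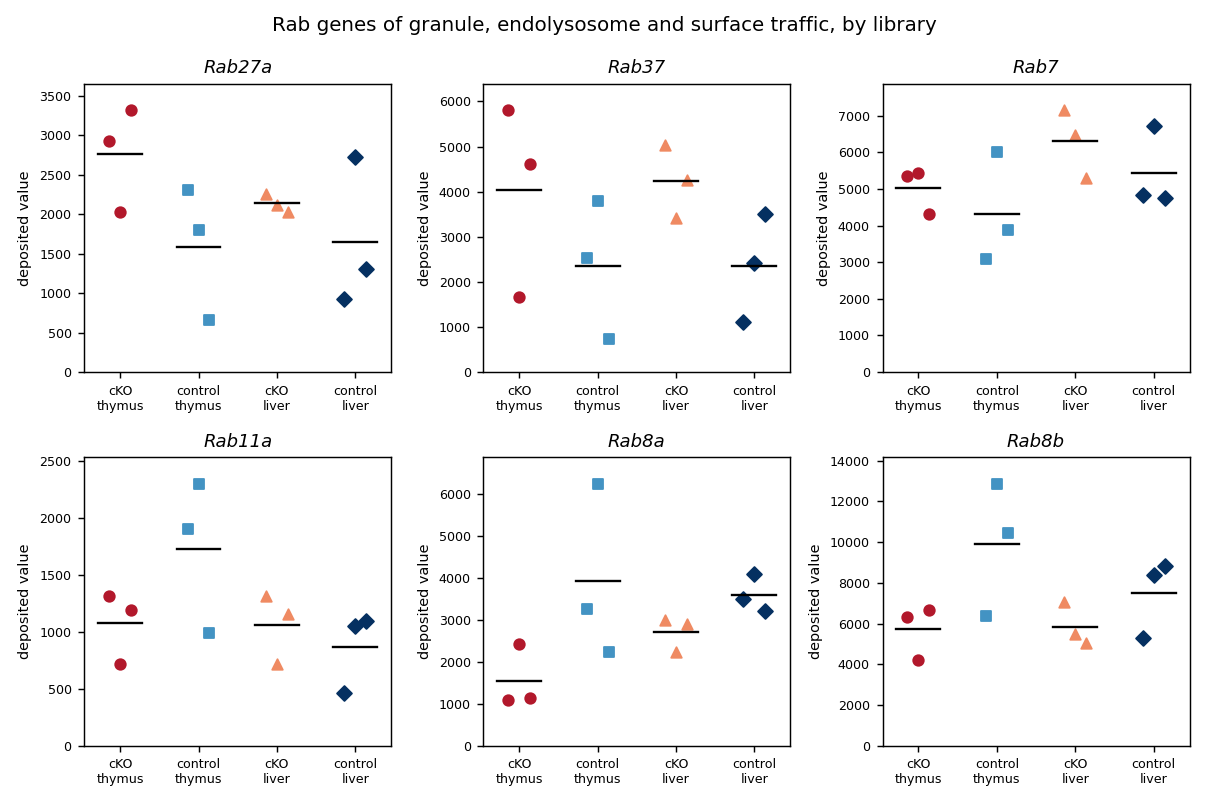
Deposited values of Rab27a, Rab37, Rab7, Rab11a, Rab8a and Rab8b by library on linear axes from 0, in the 4 groups. Points are libraries and bars group means (n = 3). The cKO and control libraries overlap in both tissues for Rab27a, Rab37, Rab7, Rab11a and Rab8b, and for Rab8a they overlap in thymus and lie apart in liver.

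Of the members of endoplasmic reticulum and Golgi traffic, 9 of 10 were tested and 0 were called. Rab6b, a Golgi Rab best known from neurons, stood at 76.0, 280.3 and 124 in cKO thymus, against 4284, 53.2 and 707 in control thymus. Liver libraries held 1.16 (2 reads), 308 and 65.4 in cKO cells, against 3724, 1075 and 1477 in control cells. The liver groups did not overlap, and in thymus the control libraries covered the whole cKO range. Its difference on the log2 scale was -5.68 ± 1.58 in liver (adjusted p = 0.13), -1.98 ± 1.58 in thymus (0.62) and -3.83 ± 1.12 over both tissues (0.085). Its spread within groups lay at percentile 99.0 among genes of like mean. In liver it passed limma's test when the 6 liver libraries were fitted alone (adjusted p = 0.035, within 0.011 to 0.63 over its alternatives), while without the libraries under 5 M reads the value was -7.39 (0.30).

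Rab6a, the Golgi paralogue found in most cells, averaged 2607 ± 580.4 in cKO thymus and 2020.4 ± 1191 in control thymus, and 2785 ± 1058 in cKO liver and 1847 ± 246 in control liver, and its groups overlapped in both tissues. Rab1a, which carries vesicles from the endoplasmic reticulum to the Golgi, stood at 3924, 6155 and 5417 in cKO thymus, 8909, 8053 and 4783 in control thymus, 3566, 4085 and 5518 in cKO liver, and 9517, 4227 and 3804 in control liver. Rab2a, also of endoplasmic reticulum and Golgi traffic, stood at 3548, 2301 and 1773 in cKO thymus and 705, 1929 and 1610 in control thymus. Its liver values were 2228, 1766 and 1805 in cKO cells and 1562, 1868 and 1557 in control cells. Both overlapped between genotypes in each tissue.

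Rab18, of the endoplasmic reticulum and lipid droplets, stood at 637, 435 and 1260.0 in cKO thymus and 363, 718 and 590.4 in control thymus. The liver values were 529.9, 707 and 403 in cKO cells and 1395, 1408 and 1592 in control cells. The groups overlapped in thymus and lay apart in liver, where the log2 fold change was -1.46 ± 0.60 (adjusted p = 0.54). Rab1b, Rab2b, Rab33b and Rab43 had log2 fold changes over both tissues between -0.89 (Rab43) and -0.15 (Rab2b). Exons of Rab43 overlap Gm45140 on the same strand (75.4% of their bases) and those of Rab2b overlap Tox4 on the opposite strand (59.3%), so these values are uncertain.

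Of the 5 remaining members 4 were tested. Rab19, which has few described functions, stood at 1453, 577 and 491 in cKO thymus and 1448, 1451 and 684 in control thymus. Liver cells had 623, 527 and 741 in the cKO group and 1416, 1802 and 1169 in control cells. The liver groups did not overlap, with a log2 fold change of -1.20 ± 0.57 (adjusted p = 0.71). Rab28, known from photoreceptors and cilia, stood at 381, 385 and 169 in cKO thymus and 12.4, 3.50 and 104 in control thymus, and at 121, 148 and 450.4 in cKO liver and 1.72, 180.2 and 363 in control liver. It lay apart in thymus and overlapped in liver, and its thymus log2 fold change of 3.99 ± 1.76 (adjusted p = 0.33) was 1.48 without control thymus libraries 1 and 2 (0.90, within 0.12 to 0.90). Rab23 and Rab40c averaged 142 to 191 and 128 to 499.9 in the 4 groups.

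Whether the genotype effect differed between liver and thymus was tested directly (liver minus thymus). No member was called by limma (0 of 39, against 0.00766% of all genes), edgeR or DESeq2, and 2 had an unadjusted p under 0.05 (5.38% of all genes). These were Rab5b (-2.88 ± 1.13, adjusted p = 0.91) and Rab18 (-1.85 ± 0.84, 0.91). The values of Rab6b (-3.70 ± 2.23) and Rab4a (-3.32 ± 1.96) were larger in size but with larger errors.

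Liver was then set against thymus within each genotype. In control cells 0 of 39 members were called by limma, against 0.605% of all genes, and 4 had an unadjusted p under 0.05 (12.7% of all genes). edgeR and DESeq2 called 0. The members with such a p were Rab22a, of early endosomes (-1.69 ± 0.60, adjusted p = 0.24), Rab18 (1.45 ± 0.60, 0.32), Rab5b (1.84 ± 0.80, 0.35) and Rab32 (4.65 ± 2.04, 0.35). Without control thymus libraries 1 and 2 the Rab32 value was 2.64 (0.80, within 0.18 to 0.80 over its alternatives). The liver libraries lay above the thymus libraries for Rab18, Rab5b and Rab32, with the values given above, and overlapped them for Rab22a. In all, 5 members did not overlap between liver and thymus in control cells (15.4% of all genes). In cKO cells 0 of 39 were called, against 0.222% of all genes, and 1 had an unadjusted p under 0.05 (7.6% of all genes), Rab8a (0.90 ± 0.42, adjusted p = 0.64). edgeR and DESeq2 called 0 here too, and 4 members did not overlap (16.1% of all genes). Both tissue comparisons share libraries with the genotype comparisons.

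Genes that regulate Rab proteins or act with them were read from 7 lists. Their median log2 fold changes over both tissues were 0.28 for the GEFs, 0.13 for the TBC-domain GAPs, -0.02 for GDI and prenylation factors, 0.37 for granule docking and exocytosis, 0.09 for endosomal effectors, 0.08 for recycling and Golgi effectors and 0.67 for Rab-like GTPases and relatives, against 0.14 for all genes. Of the 43 tested Rab GEFs, 1 passed limma's test in thymus, 0 in liver and 1 with both tissues combined. Of all genes, 0.636%, 0.505% and 2.27% passed in these comparisons. The gene was each time Dennd4c, a DENN-domain exchange factor for Rab10. Dennd4c stood at 11900, 10810 and 6358 in cKO thymus, against 2327, 1980 and 3817 in control thymus. In liver it stood at 6428, 7375 and 5543 in cKO cells, against 7094, 4298 and 4240 in control cells. It rose in cKO thymus, where the groups did not overlap (limma log2 fold change 1.85 ± 0.34, adjusted p = 0.014), and over both tissues (1.09 ± 0.24, 0.017), while the liver groups overlapped. The thymus call was lost without control thymus libraries 1 and 2 (1.29, 0.47), without cKO thymus library 1 (1.67, 0.089) or 2 (1.74, 0.069), with library weights (1.57, 0.13), without the variance trend (1.85, 0.16) and in the 6 thymus libraries alone (1.85, 0.59), within 8.1e-05 to 0.80 over all its alternatives. With both tissues combined it was lost without cKO thymus library 1, cKO liver library 2 or control liver library 2 or 3 (0.055 to 0.063), without the shallow or the gene-poor pair of libraries (0.16 and 0.13) and without the variance trend (0.18).

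Of the 34 tested genes of granule docking and exocytosis, 0 passed in thymus, 1 in liver and 1 with both tissues combined. The shares of all genes were 0.636%, 0.505% and 2.27%. The gene was each time Myo5a, the myosin Va motor that carries melanosomes and other Rab27 vesicles on actin. Myo5a stood at 3824, 2083 and 3639 in cKO thymus, against 3470, 872 and 535 in control thymus, and these groups overlapped. Liver libraries held 4132, 3443 and 2470 in cKO cells, against 413, 569.8 and 268 in control cells. It rose in cKO liver without overlap (log2 fold change 3.04 ± 0.59, adjusted p = 0.020) and over both tissues (2.21 ± 0.42, 0.0069). The liver call was lost when any one of 5 of the 6 liver libraries was left out (0.064 to 0.14), without the libraries under 5 M reads (0.37) and without the variance trend (0.15), within 3.2e-05 to 0.37 over its alternatives. Control liver library 2 was the exception. With both tissues combined the call ended without those shallow libraries (0.063) and without the variance trend (0.071).

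Of the most abundant granule genes, Lyst, the lysosomal trafficking regulator, stood at 15590, 16780 and 16780 in cKO liver, against 36510, 36580 and 26200 in control liver. The groups did not overlap, but the log2 fold change of -1.0 ± 0.25 did not pass (adjusted p = 0.086). Coro1a, a regulator of cortical actin, had -0.50 ± 0.28 in liver (0.84). The lists of GDI and prenylation factors (10 tested), TBC-domain GAPs (35), endosomal effectors (39), recycling and Golgi effectors (35) and Rab-like GTPases and relatives (11) had 0 genes called in the 3 genotype comparisons. Of these, Gdi2, which extracts Rab proteins from membranes, had a log2 fold change over both tissues of 0.01. Arl4c, an Arf-like GTPase, had 1.09 ± 0.29 in liver (adjusted p = 0.11), with 11300, 8149 and 8704 in cKO cells and 5001, 4131 and 4016 in control cells, which did not overlap. Ppm1h, a phosphatase that acts on Rab proteins, had 0.66 in thymus and -0.78 in liver (0.41 and 0.60). The exchange factors Dennd4a and Dennd1b had 0.59 and 0.27 in thymus, and the GAPs Rabgap1l and Tbc1d2b had 0.66 and 0.53. Among effectors, Appl1, of Rab5, had -0.39, Fyco1, which links Rab7 to kinesin, 0.64, the golgin Golga4 0.74 and the exocyst subunit Exoc2 0.13 in thymus, and none of these passed the test there or in liver. The tissue comparisons and the difference of the genotype effects had 0 genes called in all 7 lists.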

How the data were processed

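RNA-seq was done on 12 libraries of sorted iNKT1 cells. Per the labels' protocols, the RNeasy mini kit was used for RNA and the Ovation Ultralow kit for libraries. For mapping and counting, the submitters' processing notes list the tools HTSeq 0.6.1, STAR, TopHat2 2.1.0, Trimmomatic 0.33 and DESeq2, and the build mm10, with no role or order, so the aligner behind the values and any use of strand are not given in the sources used here. The authors deposited 1 table (14004 Ensembl genes, 12 columns), which was read as a library-size-adjusted signal. The values were matched by whole reads adjusted to a common library size through negative binomial quantiles, and inverting this placed 96.9% of values within 0.1 of a whole read. That step is inferred from the values. Recovered reads gave depth and the input of edgeR 4.0.16 and DESeq2 1.42.0.

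Symbols matched 13359 identifiers (95.4%), and exon lengths came from GENCODE on GRCm38. A gene was tested if 3 or more libraries had a value of 10 or higher (13058 genes), by limma 3.58.1 (R 4.3.3) on the scale log2(value + 1), with a mean for each of 4 groups, a variance trend and no covariate. P-values were two-sided with Benjamini-Hochberg adjustment over all tested genes and a threshold of 0.05. Fold changes are on this scale, where those of low members depend on the pseudocount and on single libraries: over both tissues limma gave 4.0 for Rab27b and -3.56 for Rab3d, against 2.99 and -2.83 by edgeR on recovered reads. Percentiles of spread compare a gene's residual SD with the 250 genes on either side by mean. The scripts were tested on simulated data. Alternatives covered the pseudocount, filters, scaling, test, library weights, variance trend, replicate block and left-out libraries.

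The rule for naming genes took, besides called members, those with an unadjusted p under 0.05 and no overlap, a fixed set of granule and endosome Rab genes, the 6 with the highest level per kb, and of each list the called genes and the most abundant ones. Rab22a and other members shown only for an unadjusted p, and members with group means, complete the account. The members, roles and gene lists were chosen with earlier results of these data known. No pairing of libraries by replicate number was seen in the values, which cannot show whether libraries shared an animal. Promoter windows were matched by symbol for 37 of 43 members (not for Rab2a, Rab4a, Rab18, Rab26, Rab27b and Rab37).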

Additional observations from a re-analysis of the deposited data

How the results depend on the processing

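The number of Rab genes called was 0 in each of the 6 comparisons and stayed 0 under every alternative for the 2 tissue comparisons and the difference of the genotype effects. In thymus DESeq2 gave 1. In liver quantile normalization, DESeq2, the fit of the liver libraries alone, the same fit with a replicate block and the fit without control thymus libraries 1 and 2 gave 1 each, and library weights gave 4 (Rab4a, Rab6b, Rab18 and Rab27b). Over both tissues a pseudocount of 10 and library weights gave 1 each, quantile normalization 2 and DESeq2 4. The fit without control thymus libraries 1 and 2 left that group with library 3 alone, so its count over both tissues is not given. Leaving out 1 library at a time gave 0 to 1 in thymus, 0 to 0 in liver and 0 to 1 over both tissues, the 1 being Rab8a without control thymus library 3, Rab6b without control thymus library 2 or cKO liver library 2, and Rab27b without control thymus library 3. The estimates of Rab27b, Rab3d, Rab4a and Rab6b kept their sign under every alternative in the 3 genotype comparisons. Among all 39 tested members the sign changed under at least 1 alternative for 19 in thymus (the largest estimate being 2.21, Rab40c), 11 in liver (-2.47, Rab3a) and 12 over both tissues (1.13, Rab31). In thymus Rab29, at 0.69, had -0.26 by edgeR and -0.27 by DESeq2. The cause of these gains was not tested.

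Deviations from the group mean were correlated between libraries of different groups. They gave -0.10 to 0.08 for same-numbered libraries and -0.11 to 0.19 for other pairs, so no pairing by number was seen. Low correlations cannot show whether libraries shared an animal. The replicate block over all 12 libraries called 0 Rab genes in each comparison. In the thymus libraries alone the block gave Dennd4c an adjusted p of 0.80 (limma). Over all genes the counts ranged more widely: 83 in thymus (0 with the thymus libraries alone, 613 by DESeq2), 66 in liver (9 without the libraries under 5 M reads, 620 with library weights) and 297 over both tissues (93 without the libraries under 5 M reads, 753 by DESeq2). The fit of the compared groups alone equals the full fit over both tissues and for the difference of effects, so it was not repeated there. Low members such as Rab27b, Rab3d and Rab4a rest on 0 to 30 reads in at least 1 library, which limits their precision.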
